A study of Mus musculus with 12 samples.

Results

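Subcutaneous mouse melanomas treated with an antibody to PD1 were compared with tumours treated with an isotype control antibody. The comparison took the 6 libraries that the labels assign to these treatments, 3 anti-PD1 and 3 isotype control, out of 12 libraries in the series. All 12 came from skin tumours that YUMM 2.1 cells formed in immunocompetent C57BL/6J mice, and treatment with the antibody began at a tumour volume of 20 to 50 mm3. The other 6 libraries came from tumours given anti-B7-H3 alone or together with anti-PD1. They entered the fit to estimate the spread between libraries, and also entered its scaling and its filter on low counts. Their values are given where they bear on a gene named here. YUMM 2.1 is 1 melanoma cell line, so all tumours share a single origin, and antibody dose, treatment length, sex and age are not given in the sources used here. Labels do not state that each library came from its own mouse, so p-values measure the spread between these libraries.

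PD1, encoded by Pdcd1, is an inhibitory receptor that activated T cells carry on their surface. Its ligands PD-L1 (Cd274) and PD-L2 (Pdcd1lg2) sit on tumour, myeloid and stromal cells, and binding recruits the phosphatases SHP2 (Ptpn11) and SHP1 (Ptpn6), which dampen signals from the T cell receptor. An antibody to PD1 blocks this contact, and where T cells respond, interferon gamma from them raises antigen presentation genes and chemokines in neighbouring cells. The series set out to measure which immune cell types the tumours held under each treatment.

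Libraries differed first in what their reads were. A group of 12 genes whose coding sequences resemble satellite repeats (Gm10800, Gm10801, Gm21738, Gm10715, Gm10717 to Gm10722, Gm11168 and Gm17535) took 90.3%, 93.7% and 93.5% of estimated reads in the isotype control libraries and 72.7%, 74.5% and 68.7% in the anti-PD1 libraries. The groups did not overlap, and the difference of -20.5 percentage points had an exact permutation p of 0.1 (two-sided, 3 against 3), the smallest this design allows. Stretches from 3 of the genes are printed because these sequences decide how deep each library is for every other gene. Each runs from base 121 to base 240 of its coding transcript in GENCODE M21 (GRCm38), and capitals mark a word of 30 bases that all 26 transcripts of the 12 genes hold on either strand and that no other of the 57105 transcripts searched holds.
Gm10800: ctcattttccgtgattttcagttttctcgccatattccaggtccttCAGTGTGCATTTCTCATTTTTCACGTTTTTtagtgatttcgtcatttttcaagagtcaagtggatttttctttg
Gm10718: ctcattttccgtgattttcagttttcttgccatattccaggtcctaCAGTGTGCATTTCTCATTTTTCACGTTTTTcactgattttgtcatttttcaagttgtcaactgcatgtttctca
Gm21738: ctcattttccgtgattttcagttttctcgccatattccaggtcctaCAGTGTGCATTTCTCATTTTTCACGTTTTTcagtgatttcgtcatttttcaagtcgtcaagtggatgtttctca
Gm10800 lies at chr2:98666547-98667301 on the minus strand, Gm10718 at chr9:3023547-3025218 on the plus strand and Gm21738 at chr14:19415857-19418930 on the minus strand. These genes were left out of every test, and reads outside them numbered 1340782 to 1512937 in isotype control and 2530099 to 2793362 in anti-PD1 libraries.

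Genes with no known role in tumours carried reads as well. Olfactory receptor (Olfr) genes, which are expressed in the nose, gave 7.22, 6.72 and 6.65 reads per kb of coding length in the isotype control libraries and 4.99, 5.47 and 5.13 in the anti-PD1 libraries. That rate did not overlap between the groups either (difference -1.67 reads per kb, exact permutation p = 0.1, the smallest possible). Multiplied by a gene's coding length, it gave the reads to expect from this background, which came to 17.1% to 17.9% of the reads outside the satellite-like genes in isotype control and 6.38% to 7.30% in anti-PD1 libraries. In the other groups the rate was lower, at 0.609 to 0.692 reads per kb with both antibodies and 0.0512 to 0.0614 with anti-B7-H3 alone. The plot of satellite-like and Olfr reads by library shows these levels.

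**Figure D1:**
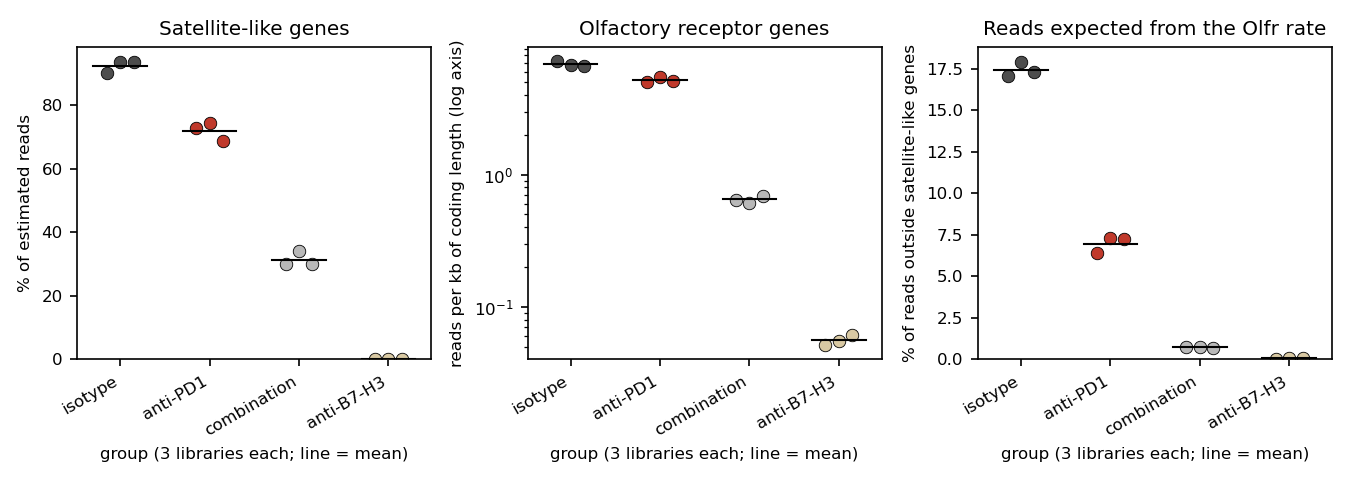
Share of reads in 12 satellite-like genes (left, percent), Olfr reads per kb of coding length (middle, log axis) and the share of other reads that the Olfr rate predicts (right, percent) in each of 12 libraries, with the group mean as a line. Isotype control libraries are highest in all 3 panels, anti-PD1 libraries follow at 68.7% to 74.5% satellite-like reads, and anti-B7-H3 libraries are near 0.

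A gene was tested where its reads over the 6 libraries reached 3 times the expected background, which left 8735 genes. With reads as deposited, 1135 genes were higher in anti-PD1 tumours (13.0% of those tested) and 1149 were lower (13.2%) at an edgeR adjusted p under 0.05, together 26.1%. Subtracting the expected background from every gene gave a second fit. Calls in the same direction with and without subtraction numbered 454 higher (5.20%) and 754 lower (8.63%), 13.8% together, while 20 genes went from higher to lower. Below, "rose" and "fell" are used only of genes called in the same direction both ways, and "called" alone refers to reads as deposited. Fold changes are given on the log2 scale ± SE, as anti-PD1 over isotype control with reads as deposited, and levels as CPM (counts scaled to a common library size of 1e6) on the TMM scale of the fit. Levels did not overlap between the groups for 36.8% of genes tested, a share to set beside each statement of no overlap below.

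The scale between the groups rests on TMM, which trims extreme genes before matching libraries. Its factors were 0.585 to 0.692 for isotype control and 1.04 to 1.05 for anti-PD1 libraries. The 20 tested genes with the most isotype control reads held 44.2% to 50.7% of the reads tested in isotype control libraries, against 17.7% to 19.1% in anti-PD1 libraries and at most 1.10% in anti-B7-H3 libraries. Scaling by library totals instead moved the median log2 fold change over all genes tested from -0.0049 to 0.71, with 6530 genes called higher and 298 lower, so that 95.6% of calls were higher in place of 49.7%. All 454 genes that rose were called higher on that scale too, whereas 298 of the 754 that fell were called lower and 130 were called higher. Subtraction acted the other way on well-expressed genes: over 198 genes with 30 to 100 times the expected reads in isotype control libraries, the median went from 0.29 to -0.10. Ccl17, Ciita, Col7a1, Fscn1, H2-DMa, Ier5, Irf1, Itgax, Krt18, Loxl1, Mmp13, Nptx1, Sema5a, Slc16a1 and Tgfb3, named below, were between 1 and 3 times the expected reads in isotype control libraries and passed the filter through the anti-PD1 group, so background makes up much of their isotype control level. Selection through the group where they are high bears on the folds and p-values of these genes, and on counts of list members that include them. These are description only where given. Named genes that fell also include members under 3 times the expected reads in isotype control libraries: Csf3r, Clec9a, Ddx58, Bub1 and Itgam. Values of rises are relative to the median gene, and direction of a small decrease depends on the scale chosen.

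**Figure D2:**
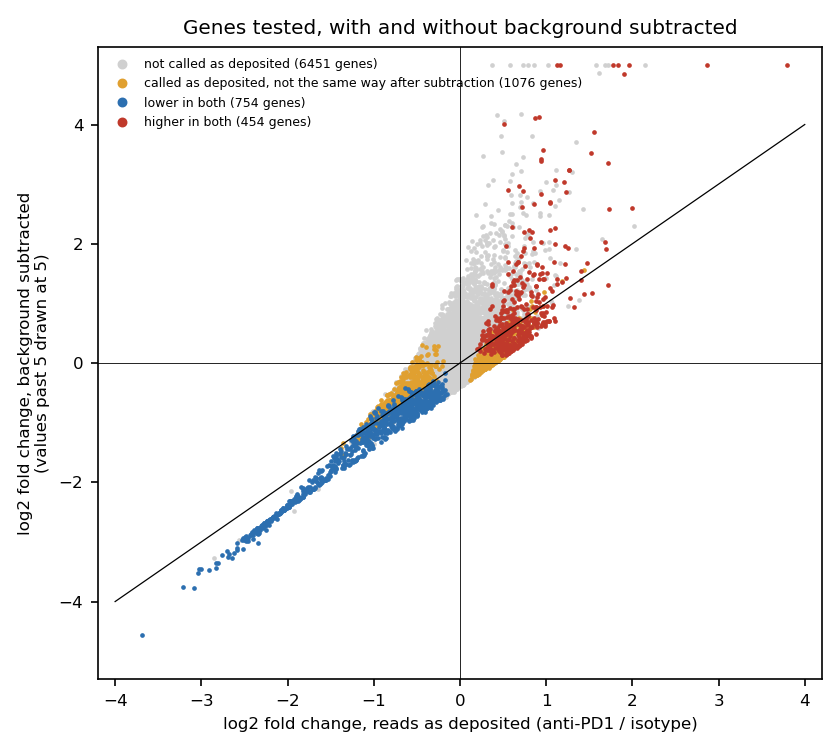
Log2 fold change of each of 8735 genes with reads as deposited (x axis) and with the expected background subtracted (y axis, values past 5 drawn at 5), the diagonal marking equal values. Red marks 454 genes higher both ways, blue 754 lower both ways, and orange the genes whose call did not carry over.

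The PD1 axis itself was largely below the level that could be measured. Of 20 genes for PD1, its ligands, its signalling partners and related checkpoints, 12 stayed under 3 times the expected background. Of the 8 tested, 1 rose and 0 fell, where 5.20% and 8.63% of all genes tested did so. Pdcd1, the antibody's target, had 3, 2 and 2 reads in isotype control and 6, 1 and 2 in anti-PD1 libraries, summing to 7 against 17.9 expected and 9 against 13.5 expected. Its level therefore could not be told from background in either group, and its response to the antibody was not detectable at this depth. The other genes under that limit were the ligands Cd80 and Cd86, the costimulatory receptors Cd28 and Icos, the inhibitory receptors Ctla4, Lag3, Havcr2, Tigit and Btla, the exhaustion regulator Tox and the ligand Vtcn1.

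The ligands of PD1 did not differ between the groups beyond the spread of libraries. Cd274 stood at 8.37, 16.8 and 15.3 CPM in isotype control and 9.35, 6.51 and 12.8 CPM in anti-PD1 libraries. These ranges overlapped, and the change of -0.46 ± 0.31 had an adjusted p of 0.309. Pdcd1lg2 stood at 8.37, 9.82 and 12.7 against 10.4, 8.04 and 6.00 CPM, again with overlap (-0.31 ± 0.34, adjusted p = 0.56). Neither phosphatase passed, with Ptpn11 at 0.27 ± 0.15 (adjusted p = 0.206) and Ptpn6 at -0.28 ± 0.18 (adjusted p = 0.251).

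Cd276, which encodes the checkpoint ligand B7-H3, was the member that rose. It measured 48.1, 25.2 and 28.0 CPM in isotype control and 66.9, 55.9 and 48.8 CPM in anti-PD1 libraries, so the lowest anti-PD1 library lay just above the highest isotype control library. The change was 0.72 ± 0.18 (adjusted p = 0.00125) with 86 reads against 454. Cd47, the "do not eat me" signal read by macrophages, was called at 0.43 ± 0.13 (adjusted p = 0.0106) but not after subtraction, and leaving out isotype control replicate 1 gave 0.31 with an adjusted p of 0.143. Its receptor Sirpa did not pass (0.29 ± 0.14, adjusted p = 0.14). Ctnnb1, encoding beta-catenin, was called at 0.27 ± 0.06 (adjusted p = 0.000177), and its change turned to -0.07 with background subtracted.

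Lymphocyte genes were at or close to background in both groups. Of 24 T cell genes, 23 were under 3 times the expected reads, as were 11 of 12 natural killer genes, 9 of 10 cytotoxic effector genes and 11 of 11 B cell genes. Summed over the T cell list, the isotype control libraries had 221, 196 and 191 reads where 190, 177 and 175 were expected, and the anti-PD1 libraries 246, 275 and 201 where 131, 144 and 135 were expected. The ratio of observed to expected was 1.12 in isotype control and 1.76 in anti-PD1 tumours. Reads beyond background per 1e6 reads on the TMM scale of the fit came to 26.6 ± 6.03 (SD, n = 3) and 39.3 ± 12 (SD, n = 3). The libraries overlapped on that scale. Its factors were 0.585 to 0.692 for isotype control and 1.04 to 1.05 for anti-PD1 libraries, so the overlap is stated for that scale alone.

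The defining genes of these cells show the same picture singly. Cd3e, which carries the signal of the T cell receptor, had 7 reads against 11.7 expected in isotype control and 11 against 8.9 in anti-PD1 libraries. Cd8a, the coreceptor of killer T cells, had 12 against 15.3 and then 7 against 11.6, and Cd4 had 39 against 28.3 and then 34 against 21.4. Foxp3, which marks regulatory T cells, had 18 against 26.6 and then 32 against 20.1. Ifng had 6 reads against 9.6 expected and then 2 against 7.3, and Gzmb, a protease of killer cells, had 14 against 15.3 and then 15 against 11.6. On the TMM scale, reads beyond background did not overlap between groups for the B cell list. They were -25.0, -18.9 and -7.70 in isotype control and 12.04, 8.13 and 1.86 in anti-PD1 libraries per 1e6 reads. For the natural killer and cytotoxic lists the libraries overlapped on that scale, and overlap is stated for that scale alone. For the cytotoxic list the ratio of observed to expected was 1.04 and 2.12, for natural killer genes 1.03 and 1.63, and for B cell genes 0.889 and 1.20. A change in lymphocyte genes smaller than the background was not detectable at this depth.

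Genes of the 4 lymphocyte lists that were tested numbered 3, and none passed. Tcf7, a transcription factor of stem-like T cells, was at -0.60, the natural killer receptor gene Klra4 at -0.47 and the chemokine Ccl5 at -0.39. The plot of observed over expected reads sets these lists beside myeloid and stromal ones.

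**Figure D3:**
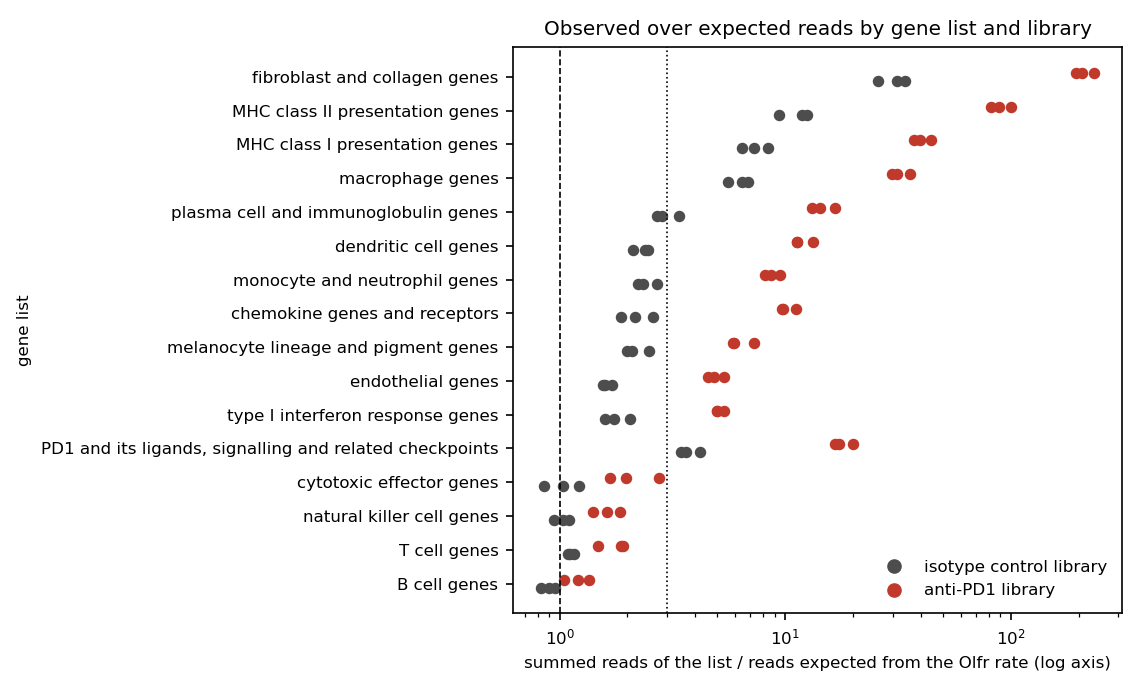
Summed reads of each gene list divided by the reads expected from the Olfr rate in the same library (log axis), for 3 isotype control and 3 anti-PD1 libraries, with a dashed line at 1 and a dotted line at 3. B cell, T cell, natural killer and cytotoxic lists stay under the dotted line in all 6 libraries, while the expected reads in the denominator are lower in anti-PD1 libraries.

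Most tested MHC class II genes rose. These genes encode the chains that show peptides to CD4+ T cells and the machinery that loads them. Of 12 listed, 11 were matched and 9 tested: 7 were called higher, 6 rose and 0 were lower, with a median change of 0.99 against -0.0049 over all genes tested, of which 5.20% rose. Cd74, the invariant chain that escorts new class II molecules, measured 512, 463 and 543 CPM in isotype control and 1125, 1045 and 1084 CPM in anti-PD1 libraries. Every anti-PD1 library was above every isotype control library, by 1.10 ± 0.05 (adjusted p = 8.23e-27, 1246 reads against 8564), and by 0.71 with background subtracted. In bulk tissue, more class II-bearing cells and more class II RNA per cell cannot be told apart.

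The peptide-binding chains followed the same course. H2-Ab1, the beta chain of I-A, measured 107, 88.4 and 131 CPM in isotype control and 231, 209 and 230 CPM in anti-PD1 libraries, a rise of 1.03 ± 0.08 (adjusted p = 4.57e-16). H2-DMa, a subunit of the peptide exchange factor, went from 17.8, 19.6 and 17.8 to 45.3, 36.8 and 42.8 CPM (1.18 ± 0.20, adjusted p = 2.28e-06). None of these ranges overlapped, as held for 36.8% of all genes tested. H2-DMa had 45 reads in isotype control libraries where 16.2 were expected, and passed the filter through the anti-PD1 group. H2-Aa (0.99, or 0.65 with background subtracted), H2-Eb1 (1.01) and Ciita, the last encoding the master coactivator of class II genes, also rose. Ciita had 73 reads in isotype control libraries where 71.4 were expected, so its change has no measured base and no fold is given. Both H2-DMa and Ciita are counted among the 6 class II genes that rose. The partner subunits H2-DMb1 (0.20) and H2-DMb2 (-0.14) did not pass, and because these neighbours are similar in sequence their reads may have been shared. H2-Oa and H2-Ob, which encode a B cell modulator of peptide loading, were at background.

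Class II promoters are known for a conserved module that Ciita acts through, including a Y box built around the letters TGATTGG. Promoter windows from RefSeq (GRCm38.p6, 250 bases before to 50 after the start) were given for 9 of the 12 listed genes. The letters TGATTGG, on either strand, occurred in 7.82% of 32851 promoter windows of that length and in those of 6 of the 9 genes. They were in H2-Aa and H2-Eb1, which rose, in H2-DMb1 and H2-DMb2, which did not pass, and in H2-Oa and H2-Ob, which were at background, but not in the windows of H2-DMa. A pair that rose and a member that did not pass are printed for comparison, with TGATTGG in capitals: H2-Aa at chr17:34287774-34288073 (minus strand), H2-Eb1 at chr17:34305617-34305916 (plus strand) and H2-DMb1 at chr17:34152941-34153240 (plus strand).
H2-Aa: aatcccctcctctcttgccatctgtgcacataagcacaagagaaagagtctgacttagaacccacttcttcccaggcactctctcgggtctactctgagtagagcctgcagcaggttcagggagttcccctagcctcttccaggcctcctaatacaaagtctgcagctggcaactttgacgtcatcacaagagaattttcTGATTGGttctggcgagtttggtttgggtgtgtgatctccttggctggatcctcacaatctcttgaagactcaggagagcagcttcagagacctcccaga
H2-Eb1: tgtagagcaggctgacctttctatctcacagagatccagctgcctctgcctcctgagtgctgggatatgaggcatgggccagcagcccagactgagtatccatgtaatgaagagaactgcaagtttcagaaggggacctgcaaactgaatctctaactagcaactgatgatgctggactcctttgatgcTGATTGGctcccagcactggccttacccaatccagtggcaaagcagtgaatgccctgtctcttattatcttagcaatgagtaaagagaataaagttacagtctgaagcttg
H2-DMb1: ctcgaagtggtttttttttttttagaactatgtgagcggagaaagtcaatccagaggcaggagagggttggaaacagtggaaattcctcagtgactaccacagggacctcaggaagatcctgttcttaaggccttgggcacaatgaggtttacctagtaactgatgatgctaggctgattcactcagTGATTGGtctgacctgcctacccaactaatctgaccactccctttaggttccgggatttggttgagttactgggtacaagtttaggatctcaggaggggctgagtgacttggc
Presence of these letters thus did not separate the members that rose from those that did not, and a match in a window is a description of its sequence only.

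MHC class I genes, which show peptides to CD8+ T cells, changed in part. Of 20 tested, 7 were called higher, 4 rose and 0 were called lower, with a median of 0.31. With background subtracted 5 were called higher and 2 lower, with a median of 0.41. Over all genes tested, 13.0% were called higher and 5.20% rose. The heavy chain H2-D1 measured 163, 139 and 169 CPM in isotype control and 333, 303 and 334 CPM in anti-PD1 libraries (1.03 ± 0.07, adjusted p = 2.27e-19). H2-K1 went from 72.2, 58.9 and 73.8 to 119, 124 and 141 CPM (0.89 ± 0.10, adjusted p = 5.07e-11). Tapbp, which holds class I molecules for loading, went from 57.6, 43.5 and 56.0 to 95.3, 87.0 and 75.6 CPM (0.70 ± 0.13, adjusted p = 1.26e-05). No library of one group reached the other in these 3 genes, as held for 36.8% of all genes tested. H2-Q4 rose as well (0.62). Class I heavy chains share long stretches of sequence, so the split of reads among them is uncertain.

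Other parts of the class I pathway did not follow. The light chain B2m was called at 0.44 but lost its call with background subtracted. The peptide transporter genes Tap1 (0.32) and Tap2 (0.08) did not pass, nor did the immunoproteasome genes Psmb8 (0.48), Psmb9 (-0.10) and Psmb10 (0.07). These members are given after their values were seen, to complete the pathway.

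Interferon gamma response genes moved in different directions. Of 14 tested, 3 rose and 1 fell, where 5.20% and 8.63% of all genes tested did so, and the median was 0.13. Irf1, a transcription factor that interferon gamma induces, went from 15.7, 12.6 and 17.8 to 36.0, 25.7 and 28.0 CPM without overlap (0.95 ± 0.23, adjusted p = 0.000795), or by 1.61 with background subtracted. The receptor genes Ifngr1 (0.49 ± 0.15, adjusted p = 0.00778) and Ifngr2 (0.63 ± 0.20, adjusted p = 0.0131) rose, but Ifngr1 lost its call without isotype control replicate 2 (0.41, adjusted p = 0.0683) and Ifngr2 without isotype control replicate 3 (0.40, adjusted p = 0.19) or anti-PD1 replicate 1 (0.54, adjusted p = 0.059). The T cell attracting chemokines Cxcl9, Cxcl10 and Cxcl11 and the enzyme Ido1 were at background. Ifi47, an immunity-related GTPase, had 0 reads in the isotype control libraries where 26.0 were expected and 104 in the anti-PD1 libraries where 19.7 were expected. It stayed under the background limit over the 6 libraries and was not tested.

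Gbp5, a guanylate-binding protein gene, was the member that fell. It stood at 2072, 2502 and 2094 CPM in isotype control and 422, 512 and 477 CPM in anti-PD1 libraries (-2.24 ± 0.08, adjusted p = 4.17e-11). In anti-B7-H3 libraries, where satellite-like and Olfr reads were near 0, it averaged 58.0 CPM. Olfr genes as a group changed by -2.10 on the same scale and the satellite-like genes by -3.10. The part of background in the Gbp5 reads was not tested.

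Genes of the type I interferon response were lower or not separable. Of 10 tested, 0 rose and 3 fell, where 5.20% and 8.63% of all genes tested did so. The median was -0.34, while 16 of the 26 listed were at background. Ifit2, which binds foreign RNA, went from 67.0, 42.1 and 48.3 to 28.8, 26.8 and 28.4 CPM (-0.94 ± 0.18, adjusted p = 3.76e-05). Ifit3 changed by -0.88 ± 0.19 (adjusted p = 0.000221) and Ddx58, encoding the RNA sensor RIG-I, by -0.85 ± 0.15 (adjusted p = 6.24e-06). None of the 3 overlapped between groups, as held for 36.8% of all genes tested. Scaled by library totals without TMM, their changes of -0.22, -0.16 and -0.14 did not pass.

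Macrophage genes gave a mixed result. Of 22 listed, 18 were tested, 6 were called higher, 2 rose and 3 fell, with a median of 0.04, where 5.20% of all genes tested rose and 8.63% fell. C1qc, a complement subunit made by tissue macrophages, went from 96.3, 132 and 136 to 212, 179 and 197 CPM (0.71 ± 0.09, adjusted p = 1.5e-09). Csf1r, the receptor that macrophages depend on, went from 158, 187 and 162 to 231, 224 and 230 CPM (0.45 ± 0.07, adjusted p = 1.37e-06). Neither gene overlapped between groups, and with background subtracted the changes were 0.37 for C1qc and 0.23 for Csf1r.

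The macrophage genes that fell included common lineage markers. Itgam, encoding CD11b, went from 91.1, 72.9 and 96.7 to 56.1, 63.2 and 50.4 CPM (-0.63 ± 0.12, adjusted p = 3.73e-05). Cd68 changed by -0.65 ± 0.18 (adjusted p = 0.00314), which did not pass once isotype control replicate 3 was left out (-0.47, adjusted p = 0.0945). Aif1, encoding Iba1, changed by -0.80 ± 0.29 (adjusted p = 0.0306) and lost its call when any isotype control library or anti-PD1 replicate 1 was left out (adjusted p 0.0705 to 0.099). Without TMM the changes of Itgam (0.09) and Cd68 (0.07) turned positive and did not pass, nor did that of Aif1 (-0.08). Adgre1, encoding F4/80, stood at 0.08 and did not pass.

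Genes of alternatively activated macrophages numbered 9 tested, of which 2 rose and 1 fell, where 5.20% and 8.63% of all genes tested did so. Mgl2, a lectin of these cells and of dermal dendritic cells, went from 53.4, 43.5 and 42.0 to 84.9, 82.7 and 86.8 CPM (0.86 ± 0.12, adjusted p = 3.82e-08). Il4ra, the receptor chain for interleukin-4, rose by 0.55 ± 0.10 (adjusted p = 8.07e-06). Chil3, a secreted chitinase-like protein, fell by 0.39 ± 0.09 (adjusted p = 0.00126), but it did not pass with isotype control replicate 2 left out (-0.28, adjusted p = 0.0807) and it was called higher without TMM (0.32).

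Dendritic cell genes rose in part. Of 8 tested, 4 rose and 1 fell, where 5.20% and 8.63% of all genes tested did so, with a median of 0.54. Ccl17, Fscn1 and Itgax, among the 4 that rose, were under 3 times the expected reads in isotype control libraries. They passed the filter through the anti-PD1 group, so this count is description only. Ccl17, a chemokine of activated dendritic cells, had 6.28, 5.61 and 7.63 CPM in isotype control and 20.5, 14.2 and 19.6 CPM in anti-PD1 libraries (1.47 ± 0.33, adjusted p = 0.000384), from 16 and 143 reads. Fscn1, an actin-bundling protein of mature dendritic cells, rose by 0.77 ± 0.17 (adjusted p = 0.000365) and Cst3, a protease inhibitor that these cells express strongly, by 0.73 ± 0.09 (adjusted p = 2.1e-09), or 0.37 with background subtracted. Itgax, encoding CD11c, rose by 0.35. The defining genes Flt3, Zbtb46, Xcr1 and Batf3 were at background in this list of 15. Clec9a, a receptor of cross-presenting dendritic cells, fell by 1.60 ± 0.36 (adjusted p = 0.000344) from 45 reads to 48 in libraries of unequal size, and averaged 2.52 CPM in anti-B7-H3 libraries.

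Granulocytes and mast cells were thinly measured. Of 16 monocyte and neutrophil genes, 10 were at background, including Ly6c2, S100a8, S100a9 and Ly6g. Csf3r, the receptor for G-CSF, fell from 58.6, 44.9 and 62.3 to 16.2, 16.5 and 22 CPM (-1.62 ± 0.19, adjusted p = 1.77e-10). It had 137 reads in isotype control libraries where 51.8 were expected and 143 in anti-PD1 libraries where 39.2 were expected. Olfr genes as a group changed by -2.10 on this scale, and the part of background in the Csf3r reads was not tested. Tpsb2, a mast cell tryptase, had 12 reads in isotype control libraries where 17.1 were expected and 146 in anti-PD1 libraries where 13 were expected. It passed the filter only through the anti-PD1 group, so no fold is given. The other mast cell genes at background were 6 of 8 listed, among them the defining genes Cpa3, Fcer1a and Ms4a2.

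Among 13 chemokine and receptor genes tested 2 were called higher, near the 13.0% of all genes, and both rose. Ccl8, a chemokine of skin macrophages, went from 39.8, 32.3 and 39.4 to 70.1, 77.8 and 68.4 CPM (0.94 ± 0.13, adjusted p = 9.76e-09), or by 0.62 with background subtracted. Cxcl16, which attracts CXCR6-bearing T cells, rose by 0.63 ± 0.21 (adjusted p = 0.0218), and lost its call without isotype control replicate 1 or 2 or without anti-PD1 replicate 1 (adjusted p 0.0645 to 0.0949). Of plasma cell and immunoglobulin genes, 2 of 6 tested rose, where 5.20% of all genes tested did so. Ighm, the IgM heavy chain, rose by 0.74 ± 0.09 (adjusted p = 1.09e-10). Sdc1, a surface proteoglycan of plasma cells and epithelia, rose by 0.77 ± 0.11 (adjusted p = 4.89e-08), or 0.49 with background subtracted. The light chain Igkc did not pass (-0.11), and the IgG genes Ighg1, Ighg2b and Ighg2c were at background.

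Many fibroblast and collagen genes rose. Of 28 listed, 24 were tested, 17 were called higher, 11 rose and 1 fell, with a median of 0.48, where 13.0% of all genes were called higher and 5.20% rose. With background subtracted 12 were called higher and 5 lower, with a median of 0.30. Col1a2, a chain of type I collagen at chr6:4504814-4541544, measured 838, 759 and 859 CPM in isotype control and 2405, 2269 and 2435 CPM in anti-PD1 libraries (1.53 ± 0.05, adjusted p = 5.93e-36). Its partner chain Col1a1 went from 1791, 1822 and 1940 to 4765, 4504 and 4676 CPM (1.33 ± 0.05, adjusted p = 5.05e-34). Col12a1, which coats collagen I fibres, went from 322, 296 and 289 to 791, 806 and 818 CPM (1.41 ± 0.05, adjusted p = 8.72e-32). In each of these the groups stood far apart compared with the spread inside them.

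The rise was not shared by all collagens. Col6a3 (0.95), Col6a2 (0.57), the adhesive glycoprotein Fn1 (0.89), the cross-linking enzymes Lox (0.73), Loxl1 (0.95) and Loxl2 (0.44), Fbln2 (0.49) and the proteoglycan Bgn (0.82) rose too. With background subtracted Col6a2 stood at 0.21, Fn1 at 0.49, Loxl1 at 1.51, Loxl2 at 0.29, Fbln2 at 0.13 and Bgn at 0.45. Col3a1 (0.45) and Col5a1 (0.48) were called higher only with reads as deposited, and Col5a2 (0.04) and the proteoglycan Lum (-0.12) were called lower only with background subtracted. Dcn, the proteoglycan decorin, fell by 0.35 ± 0.13 (adjusted p = 0.0365), but its ranges overlapped, it lost its call without isotype control replicate 1 or 2 or anti-PD1 replicate 1 or 3 (adjusted p 0.0524 to 0.398), and without TMM it was called higher (0.37). The fibroblast markers Fap, Dpt and Pi16 were at background, and Pdgfra (0.08) passed only with background subtracted (0.74). Members beyond the first 3 in each direction were named after their values were seen.

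Basement membrane genes split. Of 11 tested, 3 rose and 3 fell, where 5.20% and 8.63% of all genes tested did so, with a median of 0.0026. The laminin chain Lama5 went from 684, 679 and 651 to 1317, 1193 and 1222 CPM (0.89 ± 0.05, adjusted p = 1.92e-24), Col18a1 rose by 0.63 ± 0.05 (adjusted p = 7.79e-18) and Lamb1 by 0.48 ± 0.05 (adjusted p = 4.55e-12). Col4a1, a chain of vascular type IV collagen, fell by 0.19 ± 0.05 (adjusted p = 0.000829), Col4a2 by 0.25 ± 0.05 (adjusted p = 1.58e-05) and Lama4, a laminin of vessels and muscle, by 0.44 ± 0.05 (adjusted p = 1.64e-10). These 3 were called higher without TMM, at 0.53, 0.47 and 0.27. With background subtracted the rises of Col18a1 and Lamb1 were 0.24 and 0.17, and the changes of Col4a1, Col4a2 and Lama4 were -0.58, -0.62 and -0.76.

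Matrix enzymes and TGF-beta genes showed smaller changes. Timp1, an inhibitor of matrix proteases, rose from 67.0, 64.5 and 77.6 to 104, 119 and 113 CPM (0.68 ± 0.11, adjusted p = 1.22e-06), or by 0.36 with background subtracted. Mmp13, a collagenase, rose by 0.62 ± 0.20 (adjusted p = 0.0201), lost without isotype control replicate 1 (0.40, adjusted p = 0.26) and 1.36 with background subtracted. Of 18 genes tested in this list 2 rose and 1 fell, the last being the protease Adamts1 (-0.39 ± 0.07, adjusted p = 4.5e-06, 0.33 without TMM). Of 17 TGF-beta pathway genes tested, 5 rose and 1 fell. Beside both lists, 5.20% of all genes tested rose and 8.63% fell. The target gene Ccn2 rose by 0.66 ± 0.17 (adjusted p = 0.00201), the latency protein Ltbp3 by 0.54 ± 0.05 (adjusted p = 3.74e-14, or 0.21 with background subtracted) and the ligand Tgfb3 by 0.57 ± 0.20 (adjusted p = 0.0237). Tgfb3 lost its call without isotype control replicate 1 or 2 or anti-PD1 replicate 2 (adjusted p 0.0624 to 0.124). The ligand Tgfb2 fell by 0.72 ± 0.19 (adjusted p = 0.00197), lost without isotype control replicate 1 (-0.53, adjusted p = 0.0785) and without TMM (-0.0068).

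Vessel genes gave little. Of 19 endothelial genes 12 were at background, including Kdr, Tek and Cldn5. Of 7 tested 3 were called lower, where 13.2% of all genes tested were, but 0 held with background subtracted. Among 6 mural and smooth muscle genes tested, Acta2, the smooth muscle actin that activated fibroblasts also make, rose from 31.4, 23.8 and 30.5 to 84.9, 70.5 and 74.4 CPM (1.41 ± 0.16, adjusted p = 6.17e-11). Mcam, an adhesion molecule of pericytes and of melanoma, fell from 553, 519 and 553 to 428, 415 and 405 CPM (-0.38 ± 0.05, adjusted p = 1.09e-08) and was called higher without TMM (0.34). The smooth muscle genes Myh11 and Cnn1 were at background.

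**Figure D4:**
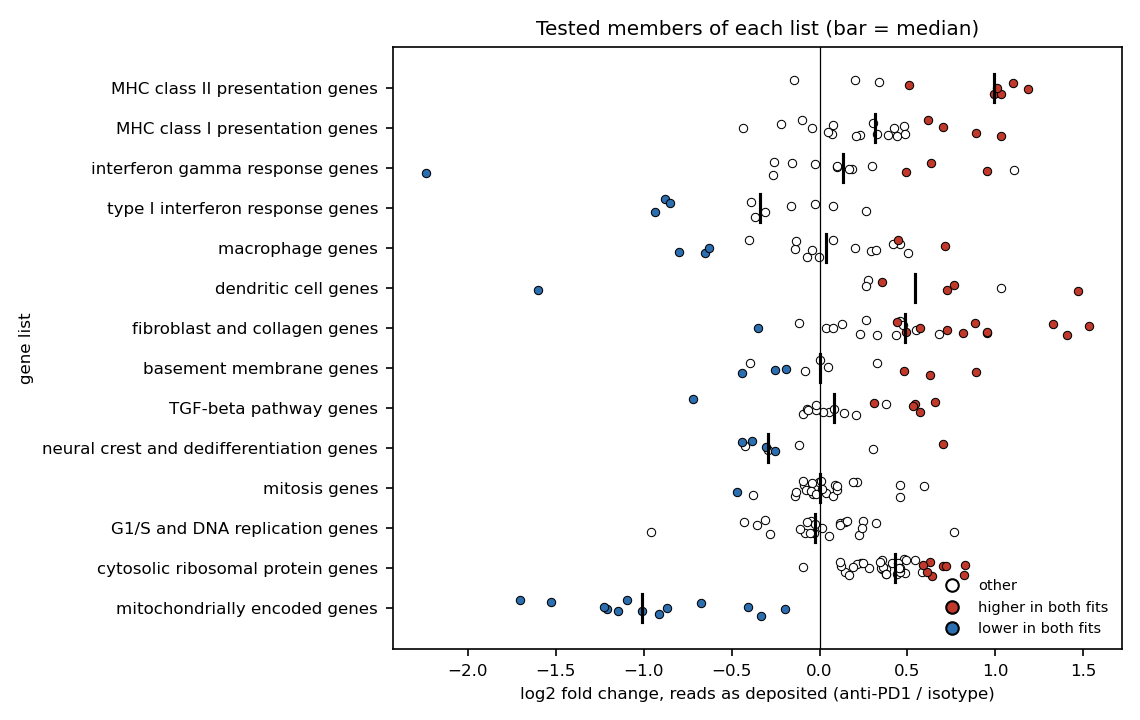
Log2 fold change, with reads as deposited, of every tested member of 14 gene lists, each point a gene and each bar the list's median. Red points rose and blue points fell with and without background subtracted: class II points run from -0.14 to 1.18 with 6 of 9 red, fibroblast points spread from -0.35 to 1.53, and mitochondrially encoded points all lie below 0, though 3 of them were called higher without TMM.

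The labelled cell type was checked against melanocyte genes. Of 16 lineage and pigment genes, 11 were at background in these 6 libraries, among them Tyrp1, Dct, Pmel and Mlana. Sox10, a transcription factor of neural crest and melanocytes, was well above it, with 560 reads against 28.8 expected in isotype control and 1545 against 21.8 in anti-PD1 libraries. It stood at 227, 254 and 206 against 209, 195 and 182 CPM (-0.22 ± 0.08, adjusted p = 0.0359). The ranges overlapped, it did not pass with isotype control replicate 1 or 2 or anti-PD1 replicate 3 left out (adjusted p 0.099 to 0.293), and without TMM it was called higher (0.49). Mitf, the master regulator of pigment cells, was called lower (-0.56) but not after subtraction.

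Neural crest genes included 1 that rose and 4 that fell among 9 tested, where 5.20% and 8.63% of all genes tested did so. Axl, a receptor kinase of dedifferentiated melanoma and of myeloid cells, went from 301, 273 and 271 to 441, 464 and 480 CPM (0.70 ± 0.06, adjusted p = 1.49e-15), or by 0.40 with background subtracted. Zeb1, a repressor of epithelial genes, fell by 0.44 ± 0.09 (adjusted p = 0.00018) and Erbb3, the neuregulin receptor, by 0.30 ± 0.06 (adjusted p = 2.05e-05). Zeb2 fell by 0.26. Without TMM, Zeb1 (0.28), Erbb3 (0.41) and Zeb2 (0.46) were called higher.

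Blood, muscle and skin can be cut out with a tumour, so their genes were read too. All 4 tested globin genes rose, where 5.20% of all genes tested did so, while Alas2, Slc4a1 and Epb42 were at background. Hba-a1 went from 49.2, 33.7 and 25.4 to 120, 88.9 and 91.6 CPM (1.44 ± 0.18, adjusted p = 9.04e-08) and Hbb-bs from 48.1, 29.5 and 40.7 to 79.9, 75.8 and 80.0 CPM (0.96 ± 0.16, adjusted p = 1.89e-06). Hbb-bt, also among the 4, had 2 reads in isotype control libraries where 9.14 were expected and 94 in anti-PD1 libraries where 6.92 were expected. It passed the filter only through the anti-PD1 group, so no fold is given. Globin copies are near-identical, so their reads may be split arbitrarily. The part of blood content in other differences was not tested.

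Muscle and keratinocyte genes were mostly at background, 18 of 22 and 12 of 15. The exceptions that fell were Neb, a giant muscle filament protein (-0.92 ± 0.09, adjusted p = 1.33e-05), the skin barrier gene Flg (-1.86 ± 0.16, adjusted p = 6.64e-12) and Sfn (-0.98 ± 0.30, adjusted p = 0.00961). Without TMM Neb (-0.20) and Sfn (-0.27) did not pass. Neb averaged 980 CPM in isotype control, 521 in anti-PD1 and 49.4 in anti-B7-H3 libraries, and Flg 132, 35.9 and 0 CPM. Sfn lost its call without isotype control replicate 1 or 3 (adjusted p 0.0564 to 0.085). Other muscle genes such as Ckm and Mylpf and other keratinocyte genes such as Krt5 and Krt1 were under 3 times the expected reads. The part of background reads in them was not tested.

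Among genes with a mean of at least 20 CPM and no overlap between groups, the 10 with the largest rises were Lpin1, Nptx1, Col4a5, Col4a6, Col7a1, Sema5a, Spp1, Krt18, Col1a2 and Hba-a1. In isotype control libraries Lpin1, Nptx1, Col4a5, Col4a6, Col7a1, Sema5a and Krt18 were under 3 times the expected reads. These passed the filter through the anti-PD1 group, so their rank, and any fold or p-value given for them, is description only. Spp1, encoding the matrix phosphoprotein osteopontin made by tumour and myeloid cells (chr5:104435118-104441050), measured 1763, 1520 and 1749 CPM in isotype control and 5443, 5418 and 5702 CPM in anti-PD1 libraries (1.72 ± 0.05, adjusted p = 7.72e-39). It carried 4143 and 43533 reads, so its depth was ample. Col7a1, the anchoring fibril collagen of skin, went from 113, 121 and 139 to 414, 390 and 423 CPM (1.73 ± 0.08, adjusted p = 9.06e-28). Krt18, a keratin of simple epithelia, went from 30.4, 18.2 and 24.2 to 80.6, 79.3 and 79.6 CPM (1.68 ± 0.18, adjusted p = 5.42e-12). Nptx1, a secreted pentraxin of neurons, went from 15.7, 26.6 and 22.9 to 83.8, 82.7 and 88.8 CPM (2.0 ± 0.18, adjusted p = 4.17e-14), and the guidance protein gene Sema5a from 36.6, 28.1 and 35.6 to 118, 108 and 108 CPM (1.72 ± 0.15, adjusted p = 1.6e-14). Isotype control reads of Sema5a were close to background, at 83 where 66.4 were expected, and its change was 3.35 with background subtracted. For Nptx1, Krt18 and Col7a1 these reads were 52, 61 and 303, where 26.7, 26.2 and 182 were expected.

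Col4a5 and Col4a6, the type IV collagen chains of epithelial basement membranes, are neighbours on the X chromosome that are transcribed away from each other. Col4a6 lies at chrX:141165403-141474076 on the minus strand and Col4a5 at chrX:141475385-141689234 on the plus strand. Col4a5 went from 17.8, 32.3 and 31.8 to 104, 97.7 and 109 CPM, and Col4a6 from 30.4, 40.7 and 22.9 to 105, 109 and 118 CPM. Both were under the expected background in isotype control libraries and passed the filter only through the anti-PD1 group, so no fold or p is given. They had 65 and 76 reads where 105 were expected of each, and 817 and 874 reads in anti-PD1 libraries where 79.2 were expected. In anti-B7-H3 libraries they were low, with 9 and 3 reads, and with both antibodies they had 51 and 30.

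Lpin1, a phosphatidate phosphatase of lipid synthesis (chr12:16535669-16610966, minus strand), had no read in any isotype control library. It had 363 reads in the anti-PD1 libraries, at 42.1, 46 and 50.4 CPM. Lpin1 passed the filter only through the anti-PD1 group, so no fold or p is given. Background alone predicted 57.1 reads in the isotype control libraries. Anti-B7-H3 libraries held 613 reads and libraries with both antibodies 419, so the absence of reads was seen in the isotype control group and not in the other 3. Why a gene expected to collect background reads had none was not tested.

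The largest decreases were of another kind. By the same rule they belonged to Zfp978, Ttll10, Clvs2, Obox3, Zfp534, Vmn2r55, Tmem267, Csprs, Dppa2 and Duxf3, which fell by 2.38 to 3.69. Ttll10, a tubulin-modifying enzyme gene, went from 495, 805 and 980 to 85.3, 85.8 and 111 CPM (-3.00 ± 0.28, adjusted p = 4.72e-05). Vmn2r55, a vomeronasal pheromone receptor gene, went from 1776, 1997 and 1614 to 275, 321 and 369 CPM (-2.48 ± 0.11, adjusted p = 2.97e-07). Duxf3, of a family active in the early embryo, went from 186, 230 and 226 to 37.4, 52.9 and 32.0 CPM (-2.38 ± 0.14, adjusted p = 6.36e-19). The germ line genes Obox3 and Dppa2 changed by -2.68 and -2.41. These sizes lie beside the -2.10 of Olfr genes and the -3.10 of satellite-like genes.

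In anti-B7-H3 libraries these 10 genes had 0 to 92 reads each. Ttll10 had 1 read there against 1817 in isotype control, Obox3 and Duxf3 0 against 176 and 520, and Vmn2r55 92 against 4390. Tmem267, a membrane protein gene, had 42 reads against 108. Whether reads of the kind that fall on satellite-like and Olfr genes make up their counts was not tested. The 82 tested genes with over 100 times the expected reads in isotype control libraries had a median change of -1.43. Of them 63 fell and 4 rose, where 8.63% and 5.20% of all genes tested did so. They were picked by isotype control reads, which also enter the change, so their direction is description only. The mitochondrial gene mt-Nd2, with 10308 reads where 21.4 were expected, is among them.

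**Figure D5:**
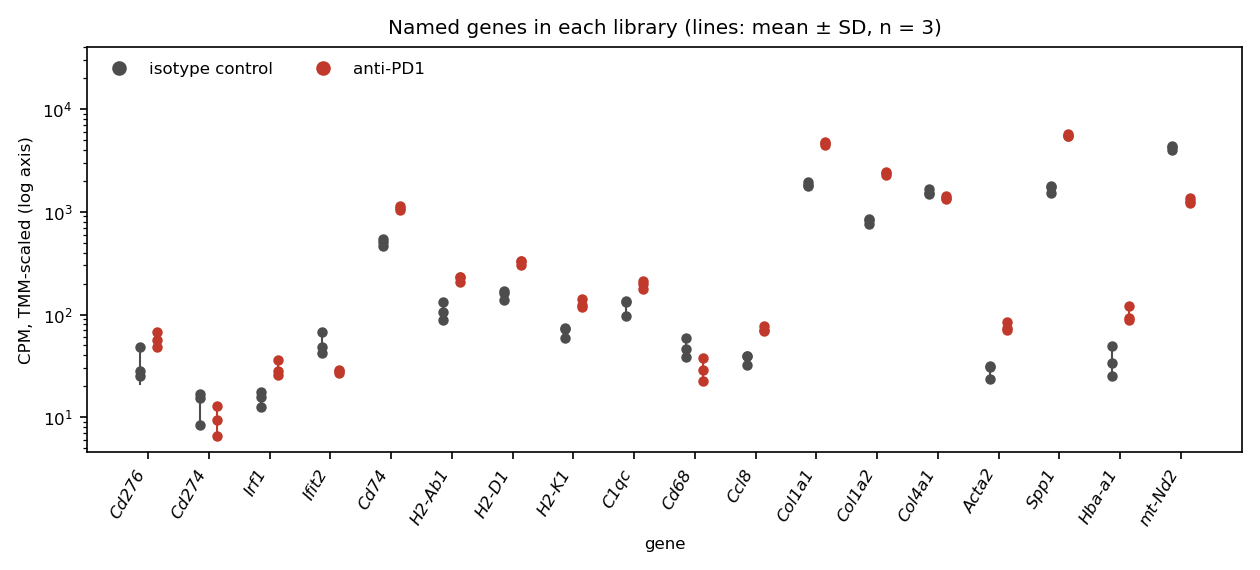
CPM on the TMM scale (log axis) of 18 genes in the 3 isotype control (grey) and 3 anti-PD1 libraries (red), with lines for mean ± SD. Class II and class I genes, type I collagens, Acta2, Spp1 and Hba-a1 are higher in every anti-PD1 library, Ifit2, Cd68 (0.07 in log2 without TMM) and mt-Nd2 are lower, and Cd274 overlaps.

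Where 8.63% of all genes tested fell, genes encoded by the mitochondrial genome fell in 13 of 13 cases. Their summed level was 44882, 48852 and 47567 CPM in isotype control and 25366, 26860 and 25997 CPM in anti-PD1 libraries, and the median change was -1.01. mt-Nd2, a complex I subunit, went from 4215, 4397 and 4002 to 1223, 1282 and 1374 CPM (-1.70 ± 0.05, adjusted p = 8.02e-33). mt-Nd6 changed by -1.53 ± 0.15 (adjusted p = 7.9e-05) and mt-Atp8 by -1.23 ± 0.06 (adjusted p = 1.38e-18). mt-Co1, a core subunit of cytochrome oxidase, changed least, by -0.19. Without TMM 8 of the 13 were called lower and mt-Co1, mt-Co2 and mt-Co3 were called higher, so the direction of those 3 depends on the scale. In anti-B7-H3 libraries mt-Nd2 averaged 256 CPM. mt-Nd6 lies antisense to its neighbours, and the counting is not stated to use strand.

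Nuclear genes of respiration did not fall with them. Of 26 tested, 6 rose and 1 fell, where 5.20% and 8.63% of all genes tested did so, with a median of 0.25. Atp5g3, of the ATP synthase ring, rose by 0.90 ± 0.19 (adjusted p = 0.000171). Ndufs7 rose by 0.92 ± 0.27 (adjusted p = 0.00968) and Uqcrfs1 by 0.78 ± 0.21 (adjusted p = 0.0023), but Ndufs7 did not pass with isotype control replicate 3 left out (0.55, adjusted p = 0.12) nor Uqcrfs1 with isotype control replicate 1 left out (0.52, adjusted p = 0.0919). Ndufa1 fell by 0.91 ± 0.27 (adjusted p = 0.00816), and did not pass without TMM (-0.19).

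Abundant housekeeping genes were called higher in large numbers, and most calls ended with background subtracted. Of 38 cytosolic ribosomal protein genes, 34 were called higher and 8 rose, of 20 translation factors 12 and 5, of 19 lysosomal genes 12 and 2, and of 20 glycolysis genes 11 and 3, where 13.0% of all genes were called higher and 5.20% rose. With background subtracted 4 ribosomal protein, 6 translation factor, 1 lysosomal and 4 glycolysis genes were called lower. Rps9 went from 265, 266 and 299 to 480, 465 and 529 CPM (0.83 ± 0.06, adjusted p = 3.18e-17), and Rplp0 rose by 0.82 ± 0.05 (adjusted p = 9.56e-23). The elongation factor Eef1a1 rose by 0.66 ± 0.05 (adjusted p = 4.9e-19), Pkm, the last enzyme of glycolysis, by 0.57 ± 0.05 (adjusted p = 5.7e-16), the lactate carrier Slc16a1 by 0.89 ± 0.17 (adjusted p = 4.05e-05), and the lysosomal cholesterol carrier Npc2 by 0.80 ± 0.11 (adjusted p = 5.47e-08). Among translation factors Eif2s1 fell (-0.47), did not pass without isotype control replicate 1 (-0.29, adjusted p = 0.24) and stood at 0.25 without TMM. With background subtracted the rises were 0.44 for Rps9, 0.42 for Rplp0, 0.26 for Eef1a1, 0.17 for Pkm and 0.46 for Npc2. The median over ribosomal protein genes was 0.43 with reads as deposited and 0.04 with background subtracted.

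Few proliferation genes were called. Of 23 genes of G1/S and DNA replication tested, 0 rose and 0 fell, with 2 called lower before subtraction. Of 24 mitosis genes 3 were called higher, 0 rose and 1 fell, the spindle checkpoint kinase Bub1 (-0.47 ± 0.13, adjusted p = 0.00416). Bub1 lost its call without isotype control replicate 3 (-0.39, adjusted p = 0.054) and stood at 0.24 without TMM. The medians were -0.02 for the first list and 0.0030 for the second. Over all genes tested, 13.0% were called higher and 13.2% lower. With background subtracted 0 mitosis genes were called higher and 5 lower, with a median of -0.12.

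Immediate early and heat shock genes, which respond quickly to handling and stress, were read as well. Junb went from 50.2, 53.3 and 59.8 to 100, 99.2 and 96.4 CPM (0.86 ± 0.13, adjusted p = 1.19e-07), and Ier5 rose by 0.92 ± 0.25 (adjusted p = 0.00353), or 1.49 with background subtracted. Egr1 fell by 0.59 ± 0.12 (adjusted p = 0.000154), Egr2 by 0.72 ± 0.19 (adjusted p = 0.00308) and Dusp1, a phosphatase that ends MAP kinase signals, by 1.15 ± 0.28 (adjusted p = 0.000972). Over the list of 20 tested, 2 rose and 4 fell, where 5.20% and 8.63% of all genes tested did so. The chaperone genes Hspb1 (-1.64 ± 0.40, adjusted p = 0.00115, 35 reads against 36) and Hsp90aa1 (-0.25 ± 0.06, adjusted p = 0.000434) fell. Of 12 heat shock genes tested, 0 rose. Without TMM, Egr1 (0.13), Egr2 (-0.0048) and Dusp1 (-0.44) did not pass and Hsp90aa1 (0.47) was called higher.

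A further 14 lists, among them complement, Fc receptor, Toll-like receptor, Wnt target, hypoxia, cholesterol synthesis and antioxidant genes, held 200 tested entries. Of these 52 were called higher and 20 lower, where 13.0% and 13.2% of all genes were, so the share called higher was above that of all genes. Calls that held with background subtracted numbered 12 that rose and 14 that fell. These shares were near the 5.20% and 8.63% of all genes, with at most 3 in either direction in any list.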

How the data were processed

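Per the labels' protocols, RNA with an integrity number of at least 7.0 (500 ng or more) went through removal of ribosomal RNA into Illumina TruSeq total RNA libraries. FastQC 0.11.8 and build GRCm38 are named in the submitters' processing notes; quantifier and strand setting are not given in the sources used here. The authors deposited 1 table per library of transcripts with length, effective length and estimated counts of reads, per the file headers; the lengths are mostly coding lengths. Of 58083 transcripts, 57473 matched GENCODE M21, and estimated counts were summed over 22195 genes and rounded. Background came from 1189 Olfr genes. The test was edgeR 4.0.16 (R 4.3.3; quasi-likelihood, robust, TMM, filterByExpr, 4 groups, 12 libraries, Benjamini-Hochberg), and DESeq2 1.42.0 was an alternative. Depth limits low genes: tested on simulated data for this comparison (8735 genes), 34.0% of changes of 0.5 and 84.5% of changes of 1 on the log2 scale were recovered, with 7 false calls.

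Members and the 52 gene lists were chosen with earlier results of these data known. Genes named were the PD1 list, the 10 largest changes per direction (mean of at least 20 CPM, no overlap, at least 3 times background in the higher group, same call with background subtracted, no predicted or clone names), up to 3 per list and direction, and defining markers. Replicates within a group differed by more than counting noise (median chi-square 0.62 to 0.95, against 0.455 for noise alone). Alternatives covered background, filter, scaling, tool, block and each library left out. Scaling without TMM was added after seeing the data. Some list members are not reported here.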

Additional observations from a re-analysis of the deposited data

How the results depend on the processing

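Counts of called genes (1135 higher, 1149 lower; 454 and 754 also with background subtracted) moved by over 1.5 times under 3 settings. At 10 times the background, fewer genes were tested and 440 were higher and 517 lower (236 and 462 also with subtraction). With no background filter, more genes were tested, 2483 were higher and 2744 lower, and 14 MHC class I genes were called in place of 7. By library totals without TMM, an alternative chosen after seeing the data, 6530 were higher and 298 lower (906 and 298), with 18 MHC class I genes higher and 8 mitochondrially encoded genes lower in place of 13. Subtraction left 8 ribosomal protein genes higher in place of 34. Without TMM 18 of 114 named genes changed sign among those called on either scale, among them Adamts1 0.33, Bub1 0.24, Cd68 0.0654, Chil3 0.32, Col4a1 0.53, Col4a2 0.47, Dcn 0.37, Egr1 0.13, Eif2s1 0.25, Erbb3 0.41, Hsp90aa1 0.47, Itgam 0.0873, Lama4 0.27, Mcam 0.34, Ptpn6 0.43, Sox10 0.49 and Zeb1 0.28. With subtraction Ctnnb1 turned to -0.0706. The cause of these shifts was not tested, beyond the number of genes tested.

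Leaving out each library in turn gave 924 to 1074 higher and 912 to 1062 lower genes (388 to 416 and 624 to 711 with subtraction), 6 to 7 class II, 7 to 9 class I, 16 to 18 fibroblast, 32 to 33 ribosomal protein, 4 globin and 13 mitochondrial genes, Olfr differences of -1.80 to -1.49 reads per kb and satellite-like differences of -21.8 to -18.9 percentage points. With only the 6 libraries in the fit, 983 genes were higher and 999 lower. With the replicate number as a block, 1096 genes were higher and 1116 lower, and no named gene changed its call. Same-numbered libraries correlated at 0.028, 0.025 and -0.023, so the numbers do not pair them. DESeq2 ended the call of 3 named genes and its size factors of 0.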
